A study of Homo sapiens with 12 samples.

Results

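The genes described here encode small nucleolar RNAs (snoRNAs) and small Cajal body RNAs (scaRNAs) in HEK293T cells, a human embryonic kidney line that carries the SV40 large T antigen. They were chosen by name: each row of the gene count tables whose Ensembl ID pairs with a symbol beginning SNORD, SNORA or SCARNA and a digit was taken. This gave 553 of 67049 rows, with 472 distinct symbols: 314 C/D box genes, 214 H/ACA box genes and 25 Cajal body genes. The cells had been transiently transfected with pIRES2-SF3B1 K700E or pIRES2-SF3B1 WT by Lipofectamine 2000, and nuclear and cytoplasmic RNA was taken 48 h later. The 4 groups were cytoplasm of K700E cells, nucleus of K700E cells, cytoplasm of WT cells and nucleus of WT cells, with 3 libraries each. The series is about whether cancer-associated SF3B1 changes alter mRNA export. All groups keep the cells' own SF3B1 and all received a plasmid, so that WT here means expression of an added wild-type SF3B1. The labels do not say that replicate libraries stem from different cultures; each p-value therefore measures library-to-library spread alone, and that spread may be technical.

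The C/D RNAs guide ribose methylation with the methyltransferase fibrillarin, and the H/ACA RNAs guide pseudouridylation with dyskerin; ribosomal RNA is the main target of both. The scaRNAs carry the same kinds of box and guide modification of spliceosomal snRNAs in the Cajal body. In human cells most of these RNAs lie in introns of other genes, called hosts here, and are trimmed out of the excised intron, while a few, such as U3, have a promoter of their own. SF3B1 is the U2 snRNP protein at the intron branch point, and K700E is its most frequent substitution in myeloid neoplasms.

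The sequences below are those of genes on which the results turn, as GENCODE release 29 transcripts looked up by gene ID, with coordinates on GRCh38. The first pair comes from introns of GNL3, which encodes the nucleolar GTPase nucleostemin: SNORD19C at chr3:52691378-52691453 (+) and SNORD69 at chr3:52692736-52692812 (+) were among the most abundant C/D RNAs. The next pair, SNORD14A at chr11:17074654-17074744 (-) and SNORD14B at chr11:17075779-17075868 (-), are copies of U14 in the ribosomal protein gene RPS13 that received very different counts. SNORD17 at chr20:17962710-17962946 (-), in an intron of the sorting nexin gene SNX5, was the gene called higher in cytoplasm. SNORA66 at chr1:92840719-92840851 (+), in an RPL5 intron, SNORA73B at chr1:28508559-28508762 (+), in an RCC1 intron, and SCARNA8 at chr9:19063656-19063786 (-), in a HAUS6 intron, stand for the other classes. Capitals mark, in C/D RNAs, TGATGA (C box) within the first 20 bases and CTGA (D box) within the last 15 bases, and in the others ACA followed by 3 bases at the 3′ end.
SNORD19C: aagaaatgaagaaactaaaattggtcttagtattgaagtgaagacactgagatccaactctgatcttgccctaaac
SNORD69: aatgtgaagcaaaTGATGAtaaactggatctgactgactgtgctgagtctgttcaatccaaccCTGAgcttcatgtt
SNORD14A: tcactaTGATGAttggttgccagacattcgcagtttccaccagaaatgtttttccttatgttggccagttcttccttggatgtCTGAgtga
SNORD14B: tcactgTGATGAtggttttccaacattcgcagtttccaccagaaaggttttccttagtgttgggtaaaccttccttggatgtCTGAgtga
SNORD17: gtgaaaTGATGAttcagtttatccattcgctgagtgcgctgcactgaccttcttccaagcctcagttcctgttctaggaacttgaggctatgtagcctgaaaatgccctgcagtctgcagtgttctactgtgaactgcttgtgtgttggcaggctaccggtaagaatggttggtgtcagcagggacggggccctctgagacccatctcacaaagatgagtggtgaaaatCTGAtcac
SNORA66: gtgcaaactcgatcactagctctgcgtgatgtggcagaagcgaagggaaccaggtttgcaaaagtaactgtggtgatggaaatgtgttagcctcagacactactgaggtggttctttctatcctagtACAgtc
SNORA73B: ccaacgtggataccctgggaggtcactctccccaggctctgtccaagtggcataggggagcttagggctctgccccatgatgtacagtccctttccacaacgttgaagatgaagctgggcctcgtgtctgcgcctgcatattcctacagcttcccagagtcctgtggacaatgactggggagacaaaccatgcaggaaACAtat
SCARNA8: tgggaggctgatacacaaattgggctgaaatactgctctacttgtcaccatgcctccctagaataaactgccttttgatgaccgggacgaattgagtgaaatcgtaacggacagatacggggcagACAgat

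SNORD14A and SNORD14B were identical at 79 of 92 aligned positions, or 85.9%. SNORD19C held neither C nor D letters in these windows, which says only that these exact letters are not there. Read on the transcript strand, both boxes were found in 194 of 314 C/D sequences (61.8%), against 0.0236% of 16946 other annotated transcripts of 50 to 350 bases. The ACA was found at that place in 143 of 213 H/ACA sequences (67.1%) and 14 of 25 Cajal body sequences (56%), against 1.53% of the other transcripts. The C/D boxes were found in 45 of the 90 C/D genes with a count (50%) and in 149 of the 224 without (66.5%).

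Libraries held 9086743 to 11200562 counts in nuclei and 13422598 to 18116929 in cytoplasm. Levels are given as CPM, counts relative to the library total after scaling by TMM factors. SF3B1, whose row takes in plasmid and cellular mRNA, lay between 6917 and 8560 CPM in K700E cytoplasm, 1024 and 1918 CPM in K700E nuclei, 8206 and 10075 CPM in WT cytoplasm, and 1070 and 2479 CPM in WT nuclei. The 5 nuclear long non-coding RNAs used as fraction markers (MALAT1, NEAT1, KCNQ1OT1, FTX and MEG3) summed to 98.4 to 140 CPM in K700E cytoplasm, against 2692 to 9838 CPM in K700E nuclei, and to 83.7 to 144.5 CPM in WT cytoplasm, against 3108 to 6426 CPM in WT nuclei. The 13 mitochondrial mRNAs ran the other way, at 6108 to 7162 CPM in K700E cytoplasm, against 969 to 1245 CPM in K700E nuclei, and at 4473 to 18783 CPM in WT cytoplasm, against 907 to 1207 CPM in WT nuclei. No transfection batch or date is in the labels.

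Few snoRNA reads were counted. The 553 genes took 22754 counts in all 12 libraries together: 14042 for C/D, 7865 for H/ACA and 847 for Cajal body genes. A library held 326 to 351 of them in K700E cytoplasm, 2862 to 4276 in K700E nuclei, 363 to 435 in WT cytoplasm and 2467 to 4121 in WT nuclei. A count in at least 1 library was found for 204 genes (90 C/D, 99 H/ACA and 15 Cajal body), and 16 had a count in all 12; the other 349 had none. The 5 most counted genes held 35.9% of the counts, and SNORD19, SNORD19C and SNORD69, all from GNL3 introns, held 17.6%. The imprinted chromosome 14 and chromosome 15 C/D clusters, which hold the SNORD113, SNORD114, SNORD115 and SNORD116 repeats, had 3 of 123 genes with a count and 4 counts in all. The kit named in the labels is for general RNA libraries; short RNAs, their precursors and unspliced host RNA are not separated in such counts, and the strand setting is not stated.

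Whether a gene was counted went with its place in the annotation. Of the 131 genes that lie wholly inside an annotated exon of the host on the same strand, 0 had a count in any library. Of the 296 in a host intron 151 had one (51%), of the 25 partly in a host exon 13 (52%), and of the 89 with no host 36 (40.5%). Pairs from the same host show it. In RPS13, the intronic SNORD14A had 2168 counts and SNORD14B, inside an exon, had 0. In HSPA8, which encodes a constitutive heat shock protein, the intronic SNORD14E had 412 counts, and SNORD14C and SNORD14D, inside exons, had 0 each. In GNL3, SNORD19B lies in an exon and had 0 counts, beside 2779 for SNORD19C, 899 for SNORD69 and 321 for SNORD19. In RCC1, which encodes the nucleotide exchange factor of Ran, SNORA73B had 440 counts and its neighbour SNORA73A, which overlaps an exon of another gene, had 0. SNORD118 (U8, needed for large-subunit rRNA processing), inside an exon of TMEM107, and SCARNA2, SCARNA17 and SNORD3D, inside exons of long non-coding RNA genes, were at 0 as well. Counting over exons of any other gene on the same strand gave the same: 139 genes wholly covered had 0 counts, 22 of 38 partly covered had some, and 180 of 369 covered on neither strand had some. Only 3 genes were wholly covered on the opposite strand alone, and 1 of them had counts. How reads in more than 1 gene were handled is not given in the sources used here, and its part in this was not tested, so a 0 at an exonic snoRNA gives no level for that RNA.

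**Figure D1:**
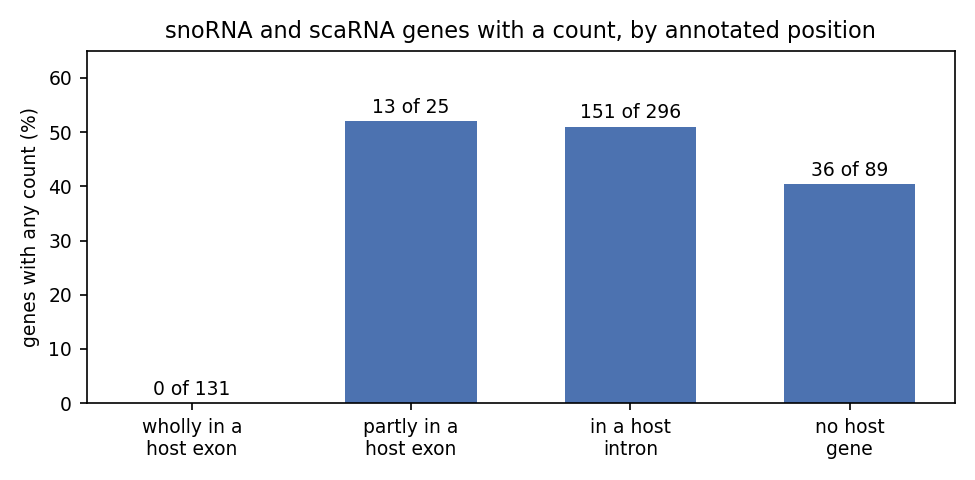
Share of the snoRNA and scaRNA genes with at least 1 count in any of the 12 libraries (percent, vertical axis) by annotated position in GENCODE 29; numbers above the bars give genes with a count of all genes. Genes wholly in a host exon are at 0 of 131, and those in a host intron at 151 of 296.

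Summed over each class, the RNAs were lower in cytoplasm than in nucleus with both constructs, and no cytoplasmic library reached any nuclear library of the same class. C/D RNAs summed to 14.3, 15.4 and 15.9 CPM in K700E cytoplasm, against 162.1, 206.2 and 226.1 CPM in K700E nuclei. With WT they summed to 12.6, 18.7 and 20.9 CPM in cytoplasm, against 112.9, 171 and 201.6 CPM in nuclei. The mean cytoplasmic sum was 7.67% of the nuclear mean with K700E and 10.7% with WT.

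H/ACA RNAs summed to 8.97, 9.13 and 14.5 CPM in K700E cytoplasm, against 76.9, 91 and 130 CPM in K700E nuclei. In WT cells the sums were 10.4, 13.3 and 14.5 CPM in cytoplasm, against 88.9, 91.7 and 111.3 CPM in nuclei. Cajal body RNAs summed to 0.232, 0.569 and 0.856 CPM in K700E cytoplasm, against 9.11, 10.6 and 13.3 CPM in K700E nuclei. Their WT sums were 0.623, 0.747 and 0.784 CPM in cytoplasm, against 9.79, 11.8 and 13.5 CPM in nuclei. The mean cytoplasmic sum was 10.9% (K700E) and 13.1% (WT) of the nuclear one for H/ACA, and 5.01% (K700E) and 6.14% (WT) for Cajal body RNAs; these class sums were not tested, since the genes were chosen with earlier results of these data known. In bulk libraries, less RNA in each cell and fewer cells with the RNA cannot be told apart.

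**Figure D2:**
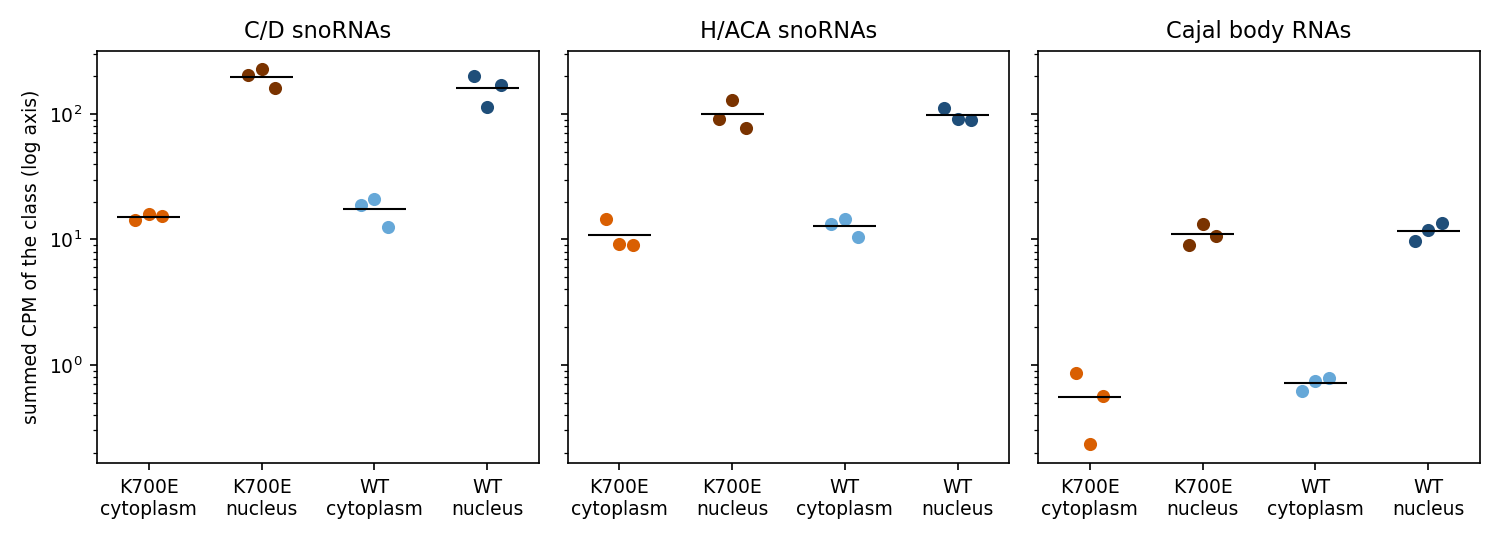
Summed CPM per library (log axis) for the C/D, H/ACA and Cajal body classes in cytoplasm and nucleus of K700E and WT cells; points are the 3 libraries of a group and lines their means. In each class the cytoplasmic points lie below the nuclear points for both constructs, and K700E and WT points overlap within each fraction.

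Gene by gene, 75 genes passed the filter on low counts (34 C/D, 36 H/ACA and 5 Cajal body). A gene could pass through its nuclear counts alone, so at low counts the filter itself favours genes that are lower in cytoplasm. The numbers that follow cover only those 75 and not all 553. The shares over all genes are given for scale and are not a like comparison. In the edgeR quasi-likelihood fit over 20394 genes, with Benjamini-Hochberg adjustment and a threshold of 0.05, 63 of the 75 were lower in K700E cytoplasm than in K700E nuclei and 1 was higher, where 37.9% of all genes tested were lower and 28.1% higher. The median log2 ratio of cytoplasm over nucleus was -4.21, against -0.295 over all genes tested. With WT, 65 were lower and 1 higher, where 40% of all genes were lower and 27.1% higher, and the medians were -4.06 for the snoRNA and scaRNA genes and -0.40 for all genes. Scaling by library size alone split all genes into 4215 higher and 9460 lower with K700E, in place of 5723 and 7725, and into 3775 and 10263 with WT, in place of 5517 and 8163. By class, 30 of 34 C/D, 28 of 36 H/ACA and 5 of 5 Cajal body genes were lower with K700E, and 30, 30 and 5 with WT. All 3 cytoplasmic libraries lay below all 3 nuclear ones for 68 of the 75 with K700E and 58 with WT, against 40.4% of all genes with either construct, and above them for 1 gene with each, against 30.2% of all genes with K700E and 29.7% with WT. Cytoplasmic counts were small: 15 genes had none in the 3 K700E cytoplasmic libraries together and 19 had 1 to 3, and with WT 11 had none and 27 had 1 to 3. With the genes at 0 set to the bound that 3 counts over the group allow, the medians were -3.75 (K700E) and -3.82 (WT).

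Among C/D RNAs, SNORD19C had the highest level per length, at a mean of 258 CPM per kilobase over the 12 libraries, followed by SNORD14A with 168 and SNORD69 with 82.2. SNORD19C had 0.514, 0.387 and 0.142 CPM in K700E cytoplasm, against 43.5, 53.5 and 44.1 CPM in K700E nuclei. In WT cells it had 0.356, 0.249 and 0 CPM in cytoplasm, against 37.7, 12.8 and 42.2 CPM in nuclei. WT nucleus replicate 2 was low, yet far above every cytoplasmic library; the log2 ratio was -7.07 (SE 0.58, adjusted p = 8.216e-08) with K700E and -7.31 (SE 0.62, adjusted p = 1.139e-07) with WT. SNORD69 had 2 counts in the cytoplasm of each construct, against 502 in K700E nuclei and 393 in WT nuclei. Its level was 273-fold lower in K700E cytoplasm (95% exact interval 75.1 to 2259) and 215.6-fold lower in WT cytoplasm (59.3 to 1786); such intervals cover counting error only. SNORD19 was lower by the test in both constructs too, with 3 cytoplasmic and 187 nuclear counts in K700E cells and 1 and 130 in WT cells.

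SNORD14A is a copy of U14, which acts in cleavage and methylation of pre-rRNA. It had 1.46, 0.619 and 0.641 CPM in K700E cytoplasm, against 31.7, 47.3 and 19.4 CPM in K700E nuclei. In WT cells the values were 1.51, 0.997 and 0.784 CPM in cytoplasm, against 25.5, 29.2 and 24.4 CPM in nuclei. The groups did not overlap, and the log2 ratios were -5.18 (SE 0.42, adjusted p = 7.556e-08) with K700E and -4.59 (SE 0.41, adjusted p = 1.697e-07) with WT. SNORD14E was lower too, with 1 cytoplasmic and 233 nuclear counts in K700E cells and 9 and 169 in WT cells (adjusted p = 1.445e-05 and 0.0002647). SNORD6, in an intron of TAF1D, which encodes a subunit of an RNA polymerase I factor, varied widely between nuclei. It had 17.7, 15.9 and 7.07 CPM in K700E nuclei and 11, 0.702 and 4.82 CPM in WT nuclei, with at most 0.232 CPM in any cytoplasmic library. SNORD59A, in an intron of the ATP synthase gene ATP5F1B, had no cytoplasmic count with either construct and was at least 33.7-fold lower in K700E cytoplasm and at least 27.1-fold lower in WT cytoplasm.

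The 3 tested C/D RNAs of NOP58, which itself encodes a core protein of C/D particles, were SNORD11, SNORD11B and SNORD70. SNORD11 had 0.171, 0.232 and 0.0712 CPM in K700E cytoplasm, against 2, 5.36 and 3.49 CPM in K700E nuclei, and 0.534, 0.332 and 0.784 CPM in WT cytoplasm, against 1.96, 5.79 and 2.64 CPM in WT nuclei. Its log2 ratio was -4.44 (SE 0.70, adjusted p = 4.229e-05) with K700E and -2.61 (SE 0.60, adjusted p = 0.001153) with WT. SNORD11B and SNORD70 were called lower in both constructs on 4 or fewer cytoplasmic counts, and SNORD11B lost the call under 5 (K700E) and 3 (WT) alternatives, SNORD70 under 4 and 12. Of the RPS12 C/D RNAs, SNORD100 was lower with both constructs (log2 -3.90 with K700E and -4.32 with WT). SNORD101 did not pass, at -1.99 (SE 0.89, adjusted p = 0.05826) with K700E and -1.81 (SE 0.88, adjusted p = 0.07796) with WT. It gained the call under 8 (K700E) and 5 (WT) alternatives. Its fractions did not overlap with K700E and did overlap with WT. SNORD72, in RPL37, had no count in K700E cytoplasm, at least 39.1-fold below K700E nuclei, and had 7 counts in WT cytoplasm, against 91 in WT nuclei. SNORD104 was lower at log2 -3.04 (SE 0.72) with K700E and -2.78 (SE 0.69) with WT.

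**Figure D3:**
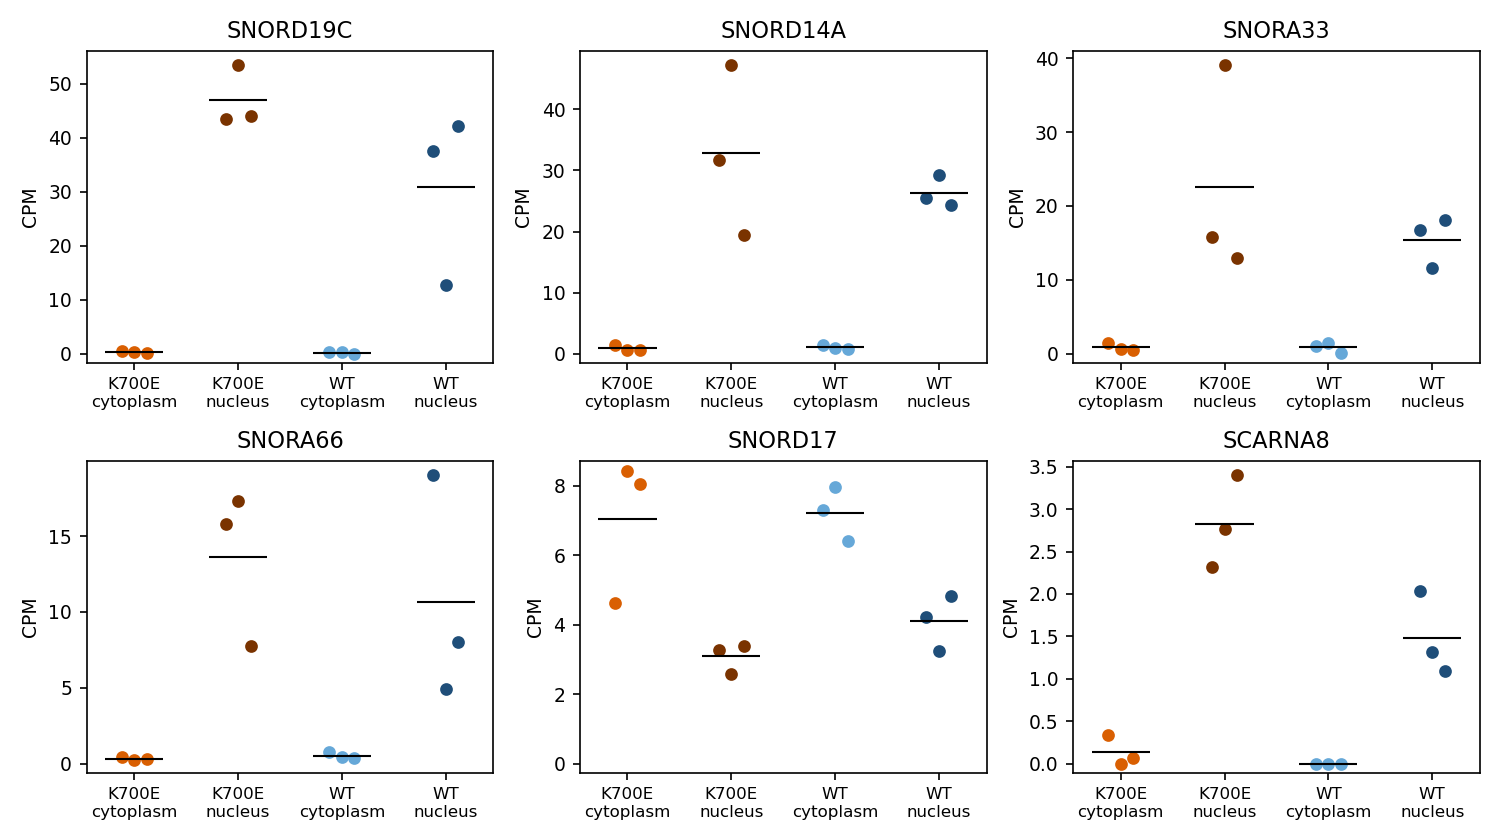
CPM per library for 6 genes in cytoplasm and nucleus of K700E and WT cells; points are libraries and lines group means, with a separate linear axis for each gene. SNORD19C, SNORD14A, SNORA33, SNORA66 and SCARNA8 are lower in every cytoplasmic library than in every nuclear library of the same construct, and SNORD17 is higher.

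Among H/ACA RNAs, SNORA33, from an intron of the ribosomal protein gene RPS12, was counted most. It had 1.46, 0.619 and 0.498 CPM in K700E cytoplasm, against 15.8, 39.1 and 13 CPM in K700E nuclei. WT cells had 1.07, 1.5 and 0.131 CPM in cytoplasm, against 16.7, 11.6 and 18.1 CPM in nuclei. The groups did not overlap, with log2 ratios of -4.73 (SE 0.62, adjusted p = 6.709e-06) for K700E and -4.14 (SE 0.61, adjusted p = 2.203e-05) for WT. SNORA66 had 0.428, 0.232 and 0.285 CPM in K700E cytoplasm, against 15.8, 17.3 and 7.76 CPM in K700E nuclei. In WT cells it had 0.801, 0.415 and 0.392 CPM in cytoplasm, against 19, 4.91 and 8 CPM in nuclei. These gave log2 ratios of -5.40 (SE 0.60) and -4.32 (SE 0.56), and both passed the test (adjusted p = 1.257e-06 and 6.187e-06). SNORA12, in CWF19L1, had no count in any cytoplasmic library and was at least 29.7-fold lower in K700E cytoplasm and at least 47.9-fold lower in WT cytoplasm. SNORA72 of NUCKS1, 1 of several rows with that symbol, had none either and was at least 23.9-fold lower with K700E and at least 34.7-fold lower with WT. SNORA16B, in PPP2R5A, had 0 cytoplasmic and 115 nuclear counts with K700E, at least 41.7-fold lower, and 1 and 161 with WT. SNORA31, partly in an exon of TPT1, had 0 and 99 counts with K700E and 2 and 62 with WT.

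SNORA73B (U17), which acts in pre-rRNA cleavage rather than as a guide, differed less between fractions than the H/ACA RNAs above. It had 2.48, 1.55 and 0.427 CPM in K700E cytoplasm, against 4.79, 2.68 and 2.44 CPM in K700E nuclei, and 2.05, 2.66 and 1.7 CPM in WT cytoplasm, against 6.03, 3.16 and 6.55 CPM in WT nuclei. The K700E groups overlapped and the log2 ratio of -1.16 (SE 0.54, adjusted p = 0.0671) did not pass; the WT ratio of -1.30 (SE 0.53, adjusted p = 0.03811) did, and lost the call under 6 alternatives. SNORA65, in RPL12, was lower at -2.04 (SE 0.52) with K700E and -1.59 (SE 0.51) with WT. SNORA9B, in DDX55, was called lower with K700E (log2 -2.15, adjusted p = 0.02804), a call lost under 5 alternatives, and was at -1.16 with WT (adjusted p = 0.2325). SNORA14B and SNORA11F, chosen after their values were seen, were the other genes with a ratio above 0 in K700E cells, at 1.13 (SE 0.95, adjusted p = 0.3032) and 0.14 (SE 0.74, adjusted p = 0.8793); in WT cells they were at 0.59 and -0.33, and their groups overlapped.

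The 5 Cajal body RNAs tested, SCARNA7, SCARNA8, SCARNA9, SCARNA14 and SCARNA20, were all lower in cytoplasm with both constructs, with log2 ratios between -6.36 and -4.05 for K700E and between -7.20 and -3.94 for WT, and no overlap between fractions. SCARNA8, which guides pseudouridylation of U2 snRNA, had 0.342, 0 and 0.0712 CPM in K700E cytoplasm, against 2.32, 2.76 and 3.4 CPM in K700E nuclei. It had no count in WT cytoplasm, against 2.04, 1.32 and 1.09 CPM in WT nuclei, and was thus at least 19.4-fold lower there. SCARNA9, which guides methylation of U2 snRNA, had 2 cytoplasmic counts with each construct, against 58 in K700E nuclei and 90 in WT nuclei. SCARNA14 had 0 and 29 counts in cytoplasm and nuclei with K700E, and 3 and 57 with WT. These 5 genes held 75.9% of the counts of their class.

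Of the genes with a promoter of their own, U3 was seen best. SNORD3A had 0.171, 0 and 0.213 CPM in K700E cytoplasm, against 2, 5.7 and 2.27 CPM in K700E nuclei, and 0.178, 0.083 and 0.458 CPM in WT cytoplasm, against 0.548, 4.82 and 5.55 CPM in WT nuclei. It was lower in cytoplasm at log2 -4.58 (SE 0.96, adjusted p = 0.0005839) with K700E and -3.80 (SE 0.88, adjusted p = 0.001253) with WT. SNORD3A, SNORD3B-1 and SNORD3B-2 are near-identical copies, so their reads may be split between rows; SNORD3B-1 had 24 counts, SNORD3B-2 16 and SNORD3C 4 over all libraries, and none of these was tested. SNORD13, a guide of rRNA acetylation, had 4 counts, all in cytoplasm. Of the wider list of 75, 5 share their annotated sequence with another row, SNORA59B among them, and their levels are uncertain for the same reason.

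SNORD17, the longest C/D RNA here at 237 bases, was the only gene of the 75 called higher in cytoplasm, with both constructs. It had 4.62, 8.44 and 8.04 CPM in K700E cytoplasm, against 3.27, 2.59 and 3.4 CPM in K700E nuclei. In WT cells it had 7.3, 7.97 and 6.41 CPM in cytoplasm, against 4.23, 3.25 and 4.82 CPM in nuclei. Within each construct, all 3 cytoplasmic libraries were above all 3 nuclear ones, on 276 cytoplasmic counts with each construct against 110 nuclear counts with K700E and 144 with WT. The log2 ratio was 1.19 (SE 0.34, adjusted p = 0.006354) with K700E and 0.82 (SE 0.34, adjusted p = 0.04277) with WT. With K700E the ratio stayed between 0.76 and 1.42 and was called in 21 of 22 alternatives, being lost with scaling by library size alone (adjusted p = 0.06771). With WT the ratio stayed between 0.30 and 1.00, the call was lost in 13 of 22 alternatives, and the adjusted p ranged over the alternatives up to 0.4564. Leaving out WT nucleus replicate 1 or 2, or WT cytoplasm replicate 1, 2 or 3, ended the WT call (adjusted p = 0.05419, 0.09273, 0.08299, 0.1103 and 0.05088 in that order). Its host SNX5 ran the opposite way, lower in cytoplasm at log2 -0.79 (SE 0.21, adjusted p = 0.004114) with K700E and -0.71 (SE 0.21, adjusted p = 0.007632) with WT.

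The 75 genes lie as follows: 65 in host introns, 3 partly in host exons and 7 without a host. The 57 hosts include 56 genes that were tested, and these were more often higher than lower in cytoplasm: 27 were higher and 14 lower with K700E, and the same numbers with WT, with median log2 ratios of 0.46 (K700E) and 0.48 (WT). That is 48.2% higher and 25% lower with each construct, beside 28.1% higher and 37.9% lower with K700E and 27.1% and 40% with WT over all genes tested. Ribosomal protein hosts were among the higher ones. RPS12 had 1215, 1032 and 1020 CPM in K700E cytoplasm, against 107.5, 122 and 56.7 CPM in K700E nuclei, a log2 ratio of 3.51 (SE 0.29). RPS13 stood at 2.58 (SE 0.31) with K700E and 2.71 (SE 0.31) with WT, and RPL5 at 2.33 (SE 0.22) and 2.36 (SE 0.23). PRPF39, host of SNORD127, had the lowest ratio of the tested hosts, at -2.45 (SE 0.26) with K700E and -1.85 (SE 0.25) with WT. GNL3, host of the 3 RNAs above, was also lower, at -1.39 (SE 0.20) with K700E and -1.47 (SE 0.20) with WT. NOP58 did not pass, at 0.05 (SE 0.25) and 0.45 (SE 0.25).

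The 66 pairs of a tested gene and its tested host hold only RNAs that passed the filter. Since a gene could pass through its nuclear counts alone, the filter favours RNA ratios below those of hosts at low counts. A like share for other genes inside hosts was not computed. The fitted cytoplasm over nucleus ratio of the RNA was below that of the host in 65 pairs with K700E and in 65 with WT. SNORD17 and SNX5 were the exception in this fit. That number depends on how low values are treated: with 2 CPM added to each value, the level of the RNA relative to its host was lower in cytoplasm in 56 pairs and higher in 10 with K700E, and lower in 57 and higher in 9 with WT. With both constructs SNORD17 of SNX5, SNORD127 of PRPF39 and SNORA9B of DDX55 were higher on that scale, without overlap between fractions. SNORA77 of ATP2B4, SNORA15B-1 of CCT6P3, SNORA71B of SNHG17, SNORA7B of RPL32P3 and SNORD13E of DENND4A were higher with both too. Their libraries overlapped in at least 1 construct. SNORD17 and SNORA9B were named by rules that used these data, SNORD17 in part because it was called higher in cytoplasm. The others were named here after their values were seen. The median fitted difference, snoRNA or scaRNA minus host, was -5.08 log2 units with K700E and -4.80 with WT. The host ratio was above 0 and that of the RNA below 0 in 41 pairs with K700E and 42 with WT. For SNORD14A and RPS13 the fitted difference was -7.77 with K700E and -7.31 with WT, and for SNORA33 and RPS12 it was -8.24 and -7.60. The 30 pairs named by rule were tested on the ratios with 2 CPM added, where 3 against 3 libraries allow no exact two-sided permutation p below 0.1. With each construct 27 pairs reached it, 25 of them lower in cytoplasm, SNORD14A and SNORA33 among these, and 2 higher, namely SNORD17 and SNORA9B. SNORA9B was thus tested in the direction opposite to its fitted difference of -1.08 with K700E and -0.09 with WT, so its place relative to DDX55 depends on the scale. SNORD19 and GNL3 did not (exact permutation p = 0.6 with K700E and 0.7 with WT). Several of the RNAs tested lay under 2 CPM in every library, among them SNORA9B, SNORD11B, SNORD70, SNORA59B and SCARNA20. For these the ratio with 2 CPM added mostly follows the host. The number of pairs that reached 0.1 therefore does not measure the RNAs apart from their hosts, and the test was not run on other genes. Some pairs were also named because the RNA fell far without overlap, or was called higher, in these same libraries. Their outcome was largely set by that choice, so the number of pairs that reached 0.1 is no rate of support. The medians of the difference between RNA and host also depend on how low values are treated, and the cause was not tested. With 0.5 CPM added to both values they were -2.37 with K700E and -2.26 with WT. The RNA was then below its host in 63 of 66 pairs with each. Over the 6 pairs with a mean of at least 5 CPM the medians were -7.09 (K700E) and -6.35 (WT), and 5 lay below the host. Across pairs, Spearman's rho between the ratio of the RNA and of its host was 0.005 with K700E and 0.22 with WT over 66 pairs that share libraries and hosts; rho between ratio and annotated length was 0.11 and 0.03 over 75 genes. Nuclear CPM of RNA and host gave 0.42 with K700E and 0.33 with WT over 67 pairs. Hosts with several tested RNAs also differed inside: SNORD19C, SNORD69 and SNORD19 of GNL3 averaged 258, 82.2 and 32.2 CPM per kilobase, and SNORA33, SNORD100 and SNORD101 of RPS12 76.6, 45.5 and 19.1 CPM per kilobase.

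**Figure D4:**
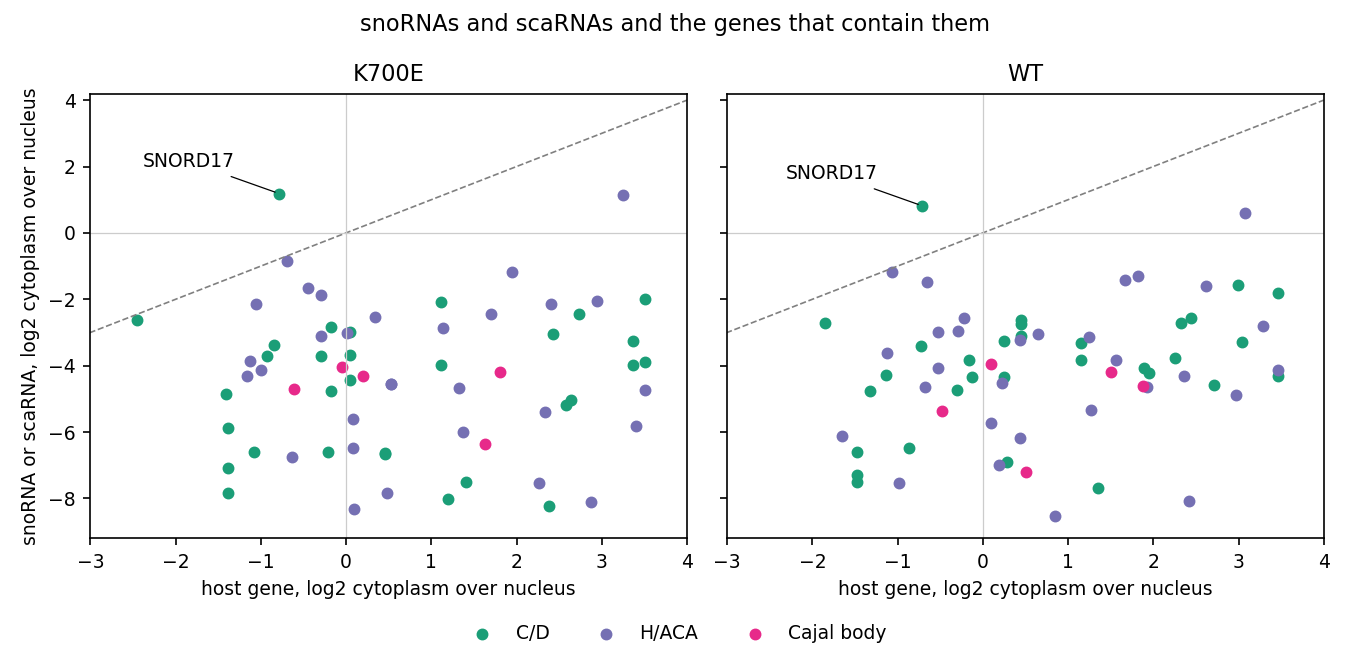
Log2 ratio of cytoplasm over nucleus for each tested snoRNA or scaRNA (vertical axis) and its host gene (horizontal axis) in K700E cells (left) and WT cells (right); each point is 1 of 66 pairs, coloured by class, and the dashed line marks equal ratios. In each panel 65 points of these fitted ratios lie below the line and SNORD17 lies above it. Only RNAs that passed the filter are shown, and passing through nuclear counts alone favours points below the line.

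Other gene types give the scale of these ratios. The median log2 ratio of cytoplasm over nucleus was -3.92 with K700E and -3.62 with WT over 301 sense-intronic genes tested, of which 234 (K700E) and 230 (WT) were lower. It was -5.95 and -6.31 over 99 snRNA genes and -5.52 and -6.02 over 45 miRNA genes, against 0.19 and 0.13 over 13895 protein-coding genes. Over 21 annotated snoRNA genes outside the name rule it was -5.84 and -5.76, and over 128 misc_RNA genes -5.86 and -6.365. Of the snRNA, miRNA, misc_RNA and these other snoRNA genes, 88.9%, 88.9%, 91.4% and 95.2% were lower with K700E, beside 84% of the 75. With WT 91.9%, 88.9%, 95.3% and 90.5% were lower, beside 86.7%. The fall in cytoplasm was thus not particular to the 75 genes. The difference between these groups and the 75 was not tested, and reads of intact introns and of mature snoRNAs cannot be told apart here.

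The mRNAs of the proteins that build these particles were more often higher than lower in cytoplasm. Of 25 tested genes of a list of particle proteins and maturation factors, 13 were higher and 1 lower in cytoplasm with K700E (median log2 0.67), and 16 higher and 2 lower with WT (median 1.09). Over all genes tested, 28.1% were higher and 37.9% lower with K700E (median -0.295), and 27.1% higher and 40% lower with WT (median -0.40). NOLC1, a nucleolar and Cajal body chaperone of the particles, was higher at 1.74 (SE 0.25) with K700E and 1.80 (SE 0.25) with WT, and RUVBL1, an assembly ATPase, at 2.43 (SE 0.22) and 2.46 (SE 0.22). NOP56, a C/D core protein, was lower at -0.88 (SE 0.21, adjusted p = 0.00173) and -0.64 (SE 0.21, adjusted p = 0.0133). DKC1, which encodes dyskerin, did not pass, at -0.24 (SE 0.19) and 0.21 (SE 0.19), nor did the nuclease genes DIS3, XRN2 and EXOSC10, while NOP58 is given above as a host. None of the 25 was called between K700E and WT in either fraction. At an unadjusted p under 0.05 there were 3 in nuclei and 0 in cytoplasm, where 6.81% and 4.56% of all genes were under it. In cytoplasm 22 of the 25 had a negative log2 ratio of K700E over WT (median -0.198), beside 9713 of 20394 genes. There 8 lay wholly below WT and 0 wholly above, where 6.98% and 6.6% of all genes did. In nuclei 2 lay wholly below and 0 above, where 4.87% and 3.91% did. A shift of the list was not tested.

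Between K700E and WT, no snoRNA or scaRNA gene was called in nuclei, in cytoplasm or for a change of the ratio between them. The background was as low: 0% of the 20394 genes were called in nuclei, 0.0049% (1 gene, higher) in cytoplasm and 0% for the ratio. At an unadjusted p under 0.05 there were 0 of 75 in nuclei, 5 in cytoplasm and 4 for the ratio, where 6.81%, 4.56% and 3.3% of all genes tested were under it, and DESeq2 and limma voom called none either. The median log2 ratio of K700E over WT was -0.03 in nuclei and -0.04 in cytoplasm. In cytoplasm 46 of the 75 had a negative ratio and 24 a positive one, beside 9713 and 10122 of all genes. In nuclei 38 were negative and 37 positive, beside 11046 and 9347 of all genes. A shift of the 75 as a set was not tested. The median SE was 0.74 in nuclei, 1.22 in cytoplasm and 1.48 for the change of the ratio between them. Changes below several-fold in cytoplasm or of the ratio were therefore not detectable at this depth, and moderate changes in nuclei could be missed as well. Class means gave K700E over WT ratios in nuclei of 1.22 for C/D, 1.02 for H/ACA and 0.942 for Cajal body RNAs, and in cytoplasm of 0.874, 0.853 and 0.769, all with overlapping libraries.

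The genes with the smallest p in nuclei were SNORD6, at log2 1.29 (SE 0.67, adjusted p = 0.6595), SNORA9B, SNORD19C, SCARNA8 and SCARNA14. SNORD19C and SCARNA8 were higher in every K700E nucleus than in every WT nucleus, at 0.60 (SE 0.40, adjusted p = 0.6705) and 0.92 (SE 0.65, adjusted p = 0.6778); 2 of 75 genes did so, where 3.91% of all genes did, and 0 of 75 lay wholly below, where 4.87% did. WT nucleus replicate 2, the lowest of its group for SNORD19C, SNORD69, SNORD6, SNORD19 and SNORA9B, is part of those values. Hosts followed no called change either: none of the 56 passed in any of these comparisons. In cytoplasm SNORA3B, in RPL27A, came first, with 0.171, 0.0774 and 0 CPM in K700E cells, against 0.89, 0.913 and 0.196 CPM in WT cells. These rest on 3 and 24 counts, and the log2 ratio of -2.90 (SE 0.91, unadjusted p = 0.005563, adjusted p = 1) did not pass. SNORA3B also had the smallest p for the change of the ratio (lower with K700E, SE 1.08 on the log2 scale, adjusted p = 0.9804). SNORA59B, SNORD72 and SCARNA8 followed in cytoplasm, with 0, 0 and 5 counts in K700E cells against 7, 7 and 0 in WT cells, and SNORD11, with 6 against 22. SNORA3B, SNORA59B and SNORD11 lay lower in every K700E library than in every WT library of cytoplasm, 3 of 75 where 6.98% of all genes did, and 0 of 75 lay wholly higher, where 6.6% did. For the change of the ratio, SNORD72, SNORA59B, SNORD14E and SNORD11 came after SNORA3B, all negative. SNORD17 was at -0.41 (SE 0.35, adjusted p = 0.7233) between K700E and WT nuclei.

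**Figure D5:**
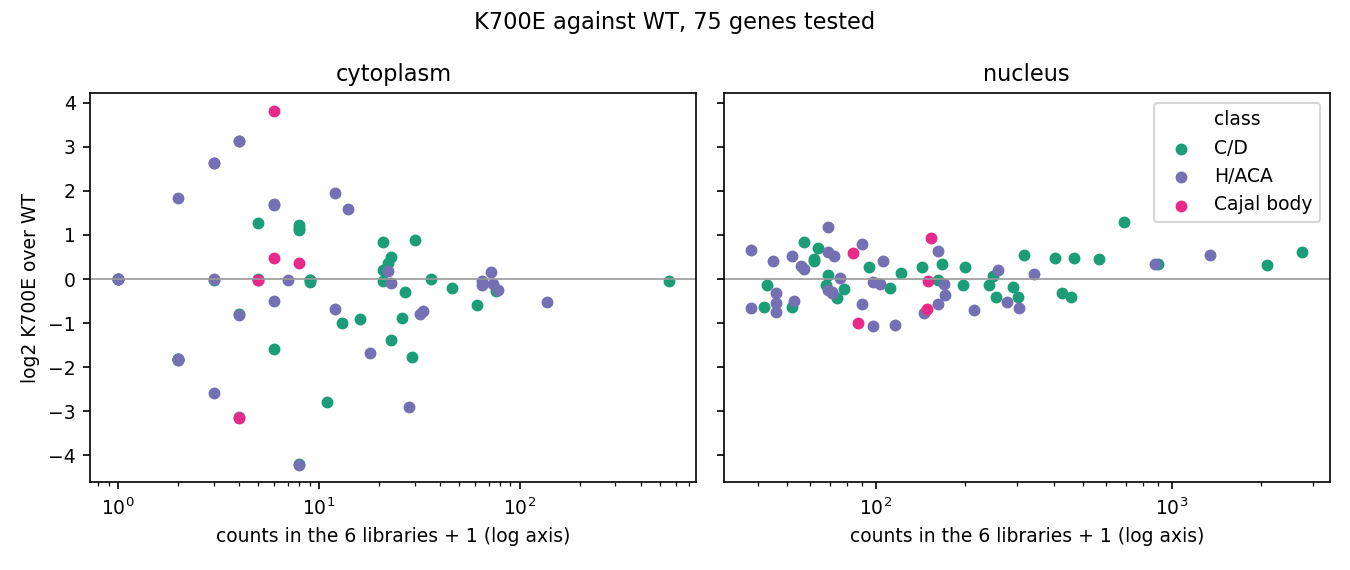
Log2 ratio of K700E over WT (vertical axis) against the counts of the gene in the 6 libraries compared plus 1 (log axis) for the 75 tested genes in cytoplasm (left) and nucleus (right); points are genes, coloured by class. Ratios spread from -4.21 to 3.81 in cytoplasm, where counts are low, and from -1.06 to 1.29 in nuclei, and none passed the test.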

How the data were processed

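Raw read counts per gene were deposited for 12 libraries of 67049 rows each. Per the labels' protocols, RNA was taken with Trizol and libraries were made with the NEBNext Ultra RNA kit from 1 ug of RNA; per the submitters' processing notes, HISAT2 and DESeq were used, without versions. The counting program, how it treated strand and reads shared by genes, and the genome build have no statement in the labels (not given in the sources used here). IDs were matched without version to a symbol table (60463 rows matched) and to GENCODE 29 on GRCh38 (58396 rows, holding 99.73% of counts), used for positions, hosts and transcript sequences. A host is the gene on the same strand that spans the whole small gene, protein-coding first, then the shortest.

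All 12 libraries were fitted with 1 term per group in edgeR 4.0.16 (R 4.3.3; TMM scaling, filterByExpr with 10 counts per library and 15 in all, quasi-likelihood F test, Benjamini-Hochberg threshold 0.05 over 20394 genes; biological coefficient of variation 0.306), after tests on simulated data. SE is the log2 ratio divided by the root of F. DESeq2 1.42.0, limma 3.58.1, other scalings, filters, replicate blocks and leaving out each library were tried. Tables, exact permutation tests and figures used Python 3.11.15, SciPy 1.17.1 and matplotlib 3.10.9. Same-numbered libraries of different groups had correlations of deviations from group means between -0.321 and 0.534, and no block was used in the main fit. With 3 libraries per group this cannot exclude that same-numbered libraries share a culture. Fits with replicate blocks are given as alternatives. The genes and lists were chosen with earlier results of these data known. Genes named are, per class, the 5 most abundant in CPM and per kilobase; every gene called higher in cytoplasm; the 3 with the largest fall per class with a mean of at least 1 CPM and no overlap; the 5 with the smallest p in each construct comparison and for the ratio; genes with their own promoter or a part in rRNA cleavage; hosts of these; hosts with 3 or more tested genes; and the 8 most abundant particle proteins. Depth limits cytoplasmic values most: 52 (K700E) and 51 (WT) of 75 tested genes had under 10 cytoplasmic counts.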

Additional observations from a re-analysis of the deposited data

How the results depend on the processing

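No called result changed direction under any alternative run. The count of genes higher in cytoplasm was least stable. With K700E it was 1, and became 0 with scaling by library size alone and 2 with limma voom, with a range of 1 to 2 when each library was left out. With WT it was 1, and became 0 with library size alone, DESeq2 size factors, no filter, upper quartile factors, at least 1 CPM in all libraries, only the 6 libraries compared, or either replicate block, with a range of 0 to 1 over left-out libraries. Genes lower fell to 0 with each construct where 1 CPM was asked of all 12 libraries, since 1 gene was then tested, and with WT to 38 of 42 tested in the 6 libraries alone; over left-out libraries they ranged from 56 to 70 with K700E and from 56 to 69 with WT. WT hosts lower became 9 with no filter; the cause was not tested. The median of RNA minus host was -2.37 (K700E) and -2.26 (WT) with a pseudocount of 0.5 CPM, and -7.09 and -6.35 over the 6 pairs with a mean of at least 5 CPM, of which 5 lay below the host; over left-out libraries it ran from -5.43 to -4.89 with K700E and from -5.58 to -4.42 with WT. Class sums (log2 cytoplasm over nucleus) moved with library size alone to -4.11 for C/D in K700E cells, where -3.70 was the value reported as a percent, to -3.45 for H/ACA in WT cells (-2.93) and to -4.55 for Cajal body RNAs in WT cells (-4.03), and without the most abundant gene to -3.35 for C/D in K700E cells. Scaling by library size alone shifted the median of all genes by -0.41 with K700E and -0.52 with WT, which these sums share.

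Whether the replicate numbers pair libraries could not be settled from these data. With the replicate block, 65 genes (number alone) and 61 (construct and number) were lower with K700E, and 64 and 61 with WT, and none was called between constructs. Of 1631 values of named genes under alternatives, 1557 kept their side of the threshold, 54 lost a call and 20 gained one, the losses being of SNORD17, SNORD70, SNORD11B, SNORA73B, SNORA9B, SNORA59B and SNORA65, and the gains of SNORD101 and SNORA73B. Depth limits the rest: most cytoplasmic values stand on fewer than 10 counts.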
